A study of Mus musculus with 4 samples.

Results

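Nodal, Lefty1, Lefty2, Tdgf1, Gdf3, Foxh1 and Cer1 are 7 genes of the Nodal signalling pathway, and they were taken by their symbols from 24421 genes counted in 4 Illumina TruSeq libraries. All 7 symbols were found, and all 7 were among the 19891 genes that had at least 1 count. The libraries came from R1, an established line of mouse embryonic stem cells (ESCs), with 2 libraries of the Undiff state and 2 of the Day4 state. The methods describe Undiff as ESCs kept with leukaemia inhibitory factor, which holds ESCs undifferentiated, whereas the labels describe it as embryoid bodies, which are free-floating aggregates of ESCs. Day4 is embryoid bodies that had been formed without that factor over 4 days and then exposed to retinoic acid (RA) for 4 days, at 2 µM in the design text and at 2 mM in the labels. The labels name no mutation or transgene in either state. By the methods, RA, the withdrawal of the factor, the aggregation into embryoid bodies and the longer culture changed together, so their parts in any difference between the states cannot be told apart. The replicates were grown and treated separately according to the methods. The libraries held 36674893 and 32099074 counts on genes in Undiff and 34956489 and 47730944 in Day4.

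Nodal is a secreted ligand of the transforming growth factor beta family that patterns the early embryo and that ESCs also make. It binds activin receptors with the help of a membrane-bound co-receptor, and the receptors phosphorylate Smad2 and Smad3, which enter the nucleus with Smad4 and bind DNA together with partners such as Foxh1. Among the genes that the pathway switches on are Nodal itself and its inhibitors Lefty1 and Lefty2, so that the pathway holds both a positive and a negative feedback loop. In the mouse, Nodal signalling induces mesoderm and endoderm, and later the left side of the body axis.

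The stretches of 250 bases upstream of the annotated starts of Nodal, Tdgf1 and Cer1 are shown because the promoter set used here held no other gene of the group. Nodal and Tdgf1 were called lower in Day4, and Cer1 was at the detection floor in both states. They are from RefSeq on GRCm38.p6, are written 5' to 3' on the strand of the gene, and end at the base before the start. Capitals mark the letters CAGACA, a Smad-binding motif.
Nodal, chr10:61417722-61417971, plus strand: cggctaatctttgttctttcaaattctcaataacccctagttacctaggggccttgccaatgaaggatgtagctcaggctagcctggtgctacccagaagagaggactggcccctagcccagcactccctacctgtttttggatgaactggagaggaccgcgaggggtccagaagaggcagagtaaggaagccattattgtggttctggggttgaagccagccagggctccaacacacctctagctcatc
Tdgf1, chr9:110946159-110946408, minus strand: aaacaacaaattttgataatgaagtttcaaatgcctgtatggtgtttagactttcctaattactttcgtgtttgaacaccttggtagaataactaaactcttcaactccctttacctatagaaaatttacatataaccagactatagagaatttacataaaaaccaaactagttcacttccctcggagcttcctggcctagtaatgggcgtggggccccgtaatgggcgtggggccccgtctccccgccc
Cer1, chr4:82885152-82885401, minus strand: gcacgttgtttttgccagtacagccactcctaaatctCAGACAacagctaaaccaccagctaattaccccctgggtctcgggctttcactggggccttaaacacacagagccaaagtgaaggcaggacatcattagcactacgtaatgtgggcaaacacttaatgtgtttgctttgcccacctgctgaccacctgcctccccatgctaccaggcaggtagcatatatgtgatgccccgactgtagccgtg
The GC content of these stretches was 53.2% for Nodal, 42% for Tdgf1 and 51.6% for Cer1. Each was searched on both strands, together with the first transcribed bases that make up a window of 300 bases, for AATCCACA and AATACACA, which Foxh1 binds, for CAGACA, for the octamer ATGCAAAT that Pou5f1 binds, and for AGGTCA, an element bound by nuclear receptors such as those of RA. Of these motifs only CAGACA was found, once, in the window of Cer1, at position -213 relative to the start. Among 32851 RefSeq windows of the same length, 21.0% held CAGACA, 16.3% held AGGTCA, 1.74% held ATGCAAAT, 0.980% held AATACACA and 0.855% held AATCCACA. Only these exact letters were searched for, so shorter or variant forms of the motifs may be present in any of the windows. Enhancers that lie outside these windows were not searched.

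Lefty1 and Lefty2 lie near each other on chromosome 1, 35919 bases apart on the plus strand, and their coding sequences are alike enough for reads to be shared. Aligned over 1107 columns, the 2 coding sequences were identical at 1017 positions (91.9%), with 0 gaps. Of the 1008 windows of 100 bases, about the length of a read, 73 were identical between them. The window in which they differ most is shown because only fragments that reach a differing base can be given to 1 of the genes. It covers coding positions 39 to 138 in exon 1, and capitals mark the 30 bases that differ. Gene and exon coordinates here and below come from the GENCODE vM21 annotation of GRCm38 (mm10).
Lefty1, chr1:180935148-180935247: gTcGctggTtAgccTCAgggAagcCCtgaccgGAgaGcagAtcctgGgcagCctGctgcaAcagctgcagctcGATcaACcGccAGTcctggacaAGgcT
Lefty2, chr1:180893222-180893321: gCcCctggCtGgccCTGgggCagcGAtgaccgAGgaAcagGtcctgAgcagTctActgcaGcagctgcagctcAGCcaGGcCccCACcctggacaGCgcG
Over whole transcripts, 73 of the 1521 windows of Lefty1 (4.80%) and 73 of the 2374 of Lefty2 (3.07%) were found exactly in the other gene. Tdgf1 shared 86 of its 1833 windows (4.69%) with the pseudogene Tdgf1-ps1. Nodal, Gdf3, Foxh1 and Cer1 shared 0 windows with any other annotated transcript. Counts of Lefty1, Lefty2 and Tdgf1 are therefore low by the fragments that aligned to both copies, by an amount that was not measured.

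In Day4, 6 of the 7 genes were called lower and 0 were called higher, and Cer1 was not called. A gene was called where its adjusted p-value in edgeR's quasi-likelihood test was at most 0.05, its log2 fold change was at least 1 in size and its mean normalized count was at least 5. By the same rule, 20.6% of all genes tested were called lower in Day4 and 22.2% were called higher. The median log2 fold change was -7.17 over the 7 genes and -0.03 over all 19891. The 7 include Cer1, whose fitted value rests on 1 count, and the median of the 6 called genes was -7.36. A normalized count is a count scaled to a common effective library size, and SD is the spread of the 2 libraries of a state. With 2 libraries an SD can lie below the counting error, as that of 0.431 for Pcsk5 in Day4 does. Such an SD does not show how precise the mean is. SE is the size of the log2 fold change divided by the square root of edgeR's F statistic. For the 6 called genes it is smaller than the counting error of their few Day4 counts. It therefore understates the error of their fold changes. These are bulk RNA samples, in which fewer cells of a type and less RNA per cell cannot be told apart. With 2 libraries in each state an exact permutation test cannot go below p = 0.333, so the adjusted p-values rest on the spread that edgeR shares across genes.

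**Figure D1:**
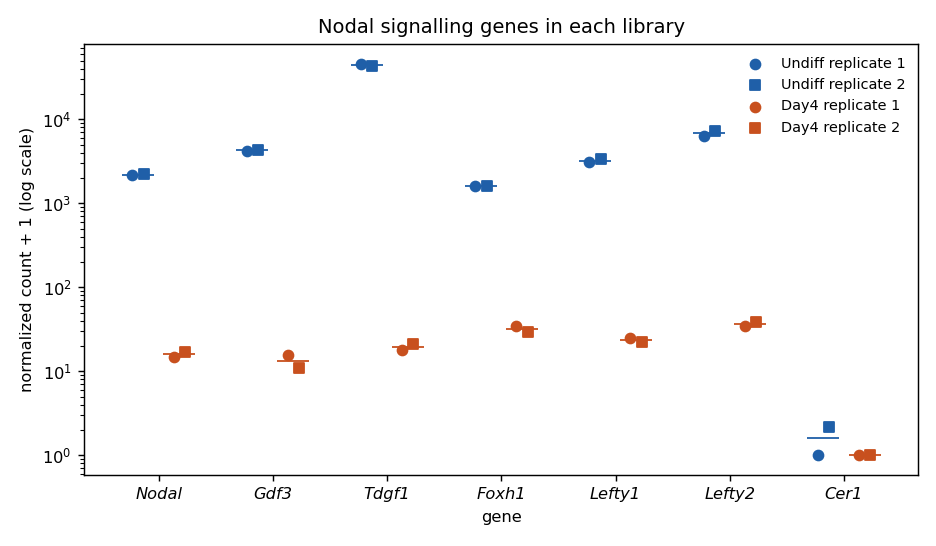
Normalized count plus 1 (log scale) of the 7 genes in each of the 4 libraries, with circles for replicate 1, squares for replicate 2, blue for Undiff, orange for Day4, and a line at the mean of each state. For all genes except Cer1 both Undiff libraries lie at 1593 or above and both Day4 libraries at 37.6 or below, whereas Cer1 has no count in 3 of the 4 libraries.

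Of the ligands, Nodal (ENSMUSG00000037171, chr10:61417972-61425338, plus strand) had normalized counts of 2148 and 2208 in Undiff replicates 1 and 2, and of 13.6 and 16.1 in Day4 replicates 1 and 2. Both Undiff libraries were high and both Day4 libraries low, with no overlap. The mean went from 2178 ± 42.3 to 14.9 ± 1.80 (SD, n = 2), a log2 fold change of -7.17 (SE 0.11, edgeR adjusted p = 7.79e-15), or 144-fold lower. Its Day4 values rest on 13 and 21 counts. Gdf3 (ENSMUSG00000030117, chr6:122605403-122610087, minus strand) encodes a related ligand that signals through the same receptors and co-receptor and that can also hold back bone morphogenetic proteins. Its normalized counts were 4207 and 4307 in the Undiff libraries and 14.6 and 9.98 in the Day4 libraries. These do not overlap either, and the Day4 libraries, with 14 and 13 counts, differed from each other by more in proportion than the Undiff libraries did. Gdf3 fell from 4257 ± 71.1 to 12.3 ± 3.28 (SD, n = 2), with a log2 fold change of -8.46 (SE 0.11, edgeR adjusted p = 1.21e-15), or 352-fold lower.

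The co-receptor gene Tdgf1 (ENSMUSG00000032494, chr9:110939603-110946158, minus strand) encodes Cripto, the membrane-anchored protein that Nodal and Gdf3 need to engage their receptors. Normalized counts of Tdgf1 were 46072 and 42823 in the Undiff libraries but 16.7 and 19.96 in the Day4 libraries. In Undiff it was the most abundant of the 7 genes, and in Day4 it was among the low ones. It fell from 44447 ± 2297 to 18.3 ± 2.30 (SD, n = 2), with a log2 fold change of -11.21 (SE 0.09, edgeR adjusted p = 4.65e-17), or 2377-fold lower. Its Day4 mean was 0.0413% of its Undiff mean, and only 3 of the 19891 genes had a lower log2 fold change.

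Foxh1 (ENSMUSG00000033837, chr15:76668225-76669948, minus strand), the forkhead transcription factor that brings activated Smad2 to DNA, had the smallest change of the 6 called genes. Its normalized counts were 1593 and 1594 in the Undiff libraries and 33.4 and 28.4 in the Day4 libraries, with no overlap. It fell from 1594 ± 0.295 to 30.9 ± 3.55 (SD, n = 2), with a log2 fold change of -5.70 (SE 0.11, edgeR adjusted p = 3.09e-14), or 52.0-fold lower. The Undiff SD rests on 2 libraries and is smaller than the counting error of their 1529 and 1332 counts.

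Both Lefty genes encode secreted inhibitors that bind Nodal and its co-receptor and that are themselves induced by the pathway. Lefty1 (ENSMUSG00000038793, chr1:180935022-180938400, plus strand) had normalized counts of 3078 and 3344 in its Undiff libraries, against 24.0 and 21.5 in Day4. Its mean went from 3211 ± 188 to 22.8 ± 1.79 (SD, n = 2), with a log2 fold change of -7.14 (SE 0.11, edgeR adjusted p = 5.31e-15), or 141-fold lower. Lefty2 (ENSMUSG00000066652, chr1:180893108-180899103, plus strand) stood at 6313 and 7308 in the Undiff libraries, against 33.4 and 37.6 in Day4. Neither gene's states overlapped. Lefty2 fell from 6811 ± 704 to 35.5 ± 2.97 (SD, n = 2), with a log2 fold change of -7.56 (SE 0.11, edgeR adjusted p = 4.84e-15), or 189-fold lower.

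Cer1 (ENSMUSG00000038192, chr4:82881751-82885148, minus strand) encodes Cerberus, a secreted Nodal antagonist of the anterior visceral endoderm, the tissue that sets the head end of the embryo. It had 0 counts in Undiff replicate 1, 1 in Undiff replicate 2 and 0 in both Day4 libraries. The floor of 3 counts lies between 0.0629 and 0.0935 CPM (counts scaled to the library total) in these libraries, so Cer1 was not detectable above that level in either state, and no fold change is given (edgeR adjusted p = 0.300).

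Among all genes, the 6 called genes lay far into the lower tail. Counted from the lowest log2 fold change of the 19891 genes, Tdgf1 ranked 4, Gdf3 64, Lefty2 137, Nodal 196, Lefty1 199 and Foxh1 529. Summed over the 7 genes, the level went from between 1604 and 1659 CPM in the Undiff libraries to between 3.65 and 3.72 CPM in the Day4 libraries, and most of the Undiff sum was Tdgf1, with 1205 and 1115 CPM. The log2 fold changes of Nodal and Lefty1 differed by -0.02, well within the combined SE of 0.16. Those of Lefty1 and Lefty2 differed by 0.42 and those of Nodal and Lefty2 by 0.40 (combined SE 0.16 for both). The smallest difference among the other pairs was 0.90, between Lefty2 and Gdf3. Since the SE understates the counting error of the Day4 counts, whether these differences exceed their error was not tested. The differences are descriptive and carry no p-value, since the genes share their libraries.

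**Figure D2:**
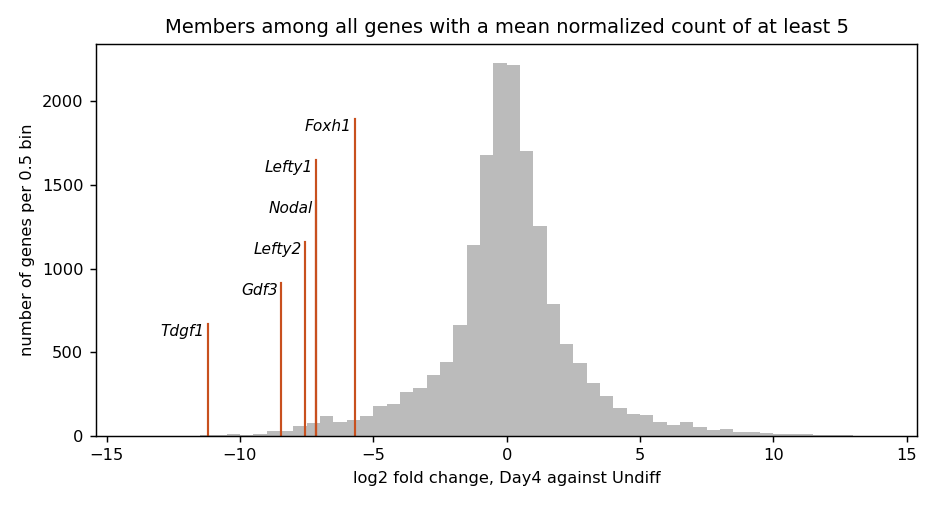
Histogram of the log2 fold change, Day4 against Undiff, of 16472 genes whose mean normalized count was 5 or more (grey, number of genes per 0.5 bin), with an orange line at the value of each called gene of the pathway. The lines run from Tdgf1 at -11.21 to Foxh1 at -5.70, all left of the bulk of genes, whose median is 0.03, and their heights are only set apart for reading.

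The order of the genes by level also changed. Levels between genes are compared as normalized counts per kilobase of merged exons. The lengths are from GENCODE vM21, whereas the authors counted genes on an iGenomes UCSC annotation, so they need not match the exons counted. In Undiff, Tdgf1 was highest at 16952 per kilobase, followed by Lefty2 at 2608, Lefty1 at 1827, Gdf3 at 1757, Foxh1 at 1167 and Nodal at 1039. The ranges of Lefty1 and Gdf3 overlapped between libraries, whereas those of the other neighbours in this order did not. In Day4, Foxh1 was highest at 22.7 per kilobase, followed by Lefty2 at 13.6, Lefty1 at 12.9, Nodal at 7.09, Tdgf1 at 6.99 and Gdf3 at 5.08. There the ranges overlapped between Lefty2 and Lefty1 and between Nodal and Tdgf1. All these Day4 levels rest on few counts, 13 to 49 per gene and library against a floor of 3, and carry their counting error. No test was made of the order.

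Set against Nodal in the same library, Tdgf1 had the ratio that changed most. The level of Tdgf1 per kilobase was 17.1 and 15.5 times that of Nodal in Undiff replicates 1 and 2, and 0.983 and 0.989 times in Day4 replicates 1 and 2. The summed level of Lefty1 and Lefty2 was 4.07 and 4.46 times that of Nodal in Undiff and 4.08 and 3.46 times in Day4, so the states overlapped in this ratio of inhibitors to ligand. Gdf3 stood at 1.69 times Nodal in both Undiff libraries and at 0.931 and 0.535 times in the Day4 libraries. Foxh1 went the other way, from 1.14 and 1.11 times Nodal in Undiff to 3.78 and 2.70 times in Day4. The Day4 ratios rest on 13 to 49 counts per gene and library and carry their counting error.

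**Figure D3:**
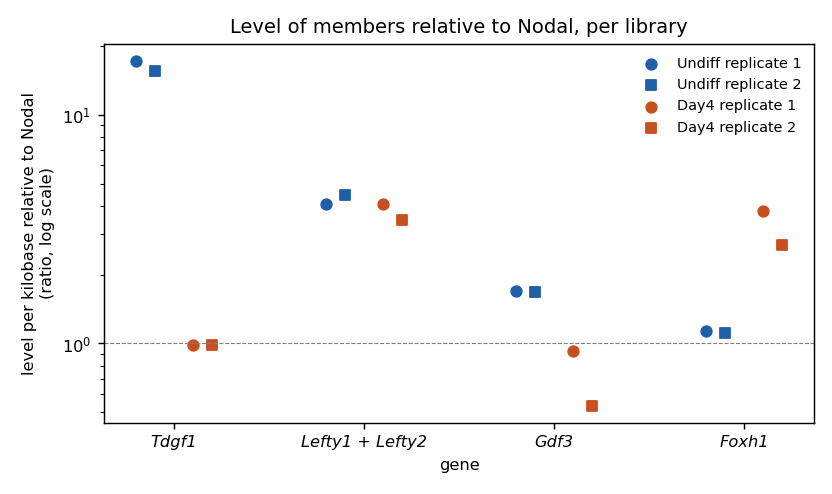
Level per kilobase of Tdgf1, of Lefty1 plus Lefty2, of Gdf3 and of Foxh1, each divided by that of Nodal in the same library (ratio, log scale), with blue for Undiff, orange for Day4, circles for replicate 1, squares for replicate 2 and a dashed line at equal levels. Tdgf1 drops from above 15 to just under 1, Foxh1 moves up from 1.11 and 1.14 to 2.70 and 3.78, and the Lefty sum overlaps between the states.

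The split of counts between the Lefty genes was compared as well. Lefty1 held 32.8% (95% exact binomial interval 31.8 to 33.8) of the summed Lefty1 and Lefty2 counts in Undiff replicate 1 and 31.4% (30.4 to 32.4) in Undiff replicate 2. It held 41.8% (28.7 to 55.9) in Day4 replicate 1 and 36.4% (25.7 to 48.1) in Day4 replicate 2, and these intervals cover counting error only. The means of 32.1% ± 0.979 and 39.1% ± 3.86 (SD, n = 2) differed by 7.005 percentage points, with p = 0.333 in a two-sided exact permutation test over libraries, the smallest it can give. The difference was 4.28 points without Day4 replicate 1 and 9.73 points without Day4 replicate 2. The intervals of both Day4 libraries include both Undiff shares, so a change of this size was not detectable at the Day4 depth of 23 Lefty1 and 32 Lefty2 counts in replicate 1 and of 28 and 49 in replicate 2.

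The wider Nodal and activin pathway was called in both directions. Of 38 further genes, grouped by role, 9 were called lower, 11 were called higher and 18 were not called, Gdf1 without any count among them, beside the 20.6% and 22.2% of all genes. The median log2 fold change of the 37 with a count was 0.19, against -0.03 over all genes. Their summed level was 2004 and 2019 CPM in the Undiff libraries and 1925 and 1929 CPM in the Day4 libraries. Of the 5 receptor and co-receptor genes 3 were not called, and of the 3 Smad genes 2 were not called.

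Of the other ligand subunits, Inhbb, the beta B subunit of activin, fell from 577 ± 69.6 to 9.94 ± 2.23 (SD, n = 2; log2 fold change -5.80, SE 0.20, edgeR adjusted p = 8.71e-12). Inha, the alpha subunit that turns the beta subunits into inhibins, rose from 25.8 ± 4.09 to 352 ± 1.02 (log2 fold change 3.77, SE 0.16). Inhba, the beta A subunit, had 43.3 ± 2.07 and 53.0 ± 1.07 and was not called (log2 fold change 0.29, adjusted p = 0.256). Gdf1 had 0 counts in all 4 libraries, and in the annotation it overlaps Cers1 and Upf1, whose fragments it would share.

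All 3 convertase genes were called. Furin and Pcsk6 encode proteases that cut the Nodal precursor, and they went in opposite directions. Pcsk6 fell from 1639 ± 24.4 to 321 ± 21.4 (SD, n = 2; log2 fold change -2.34, SE 0.07), whereas Furin rose from 911 ± 70.2 to 2763 ± 169 (log2 fold change 1.60, SE 0.07). Pcsk5, of the same protease family, rose from 9.40 ± 1.45 to 1001 ± 0.431 (log2 fold change 6.71, SE 0.15, edgeR adjusted p = 1.74e-13).

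Of the receptor genes, Acvr1b, the type I receptor that Nodal uses, had 1580 ± 13.7 in Undiff and 1710 ± 5.27 in Day4 (log2 fold change 0.11, edgeR adjusted p = 0.0650). The type II receptor Acvr2b had 526 ± 32.1 and 587 ± 27.2 (log2 fold change 0.15, adjusted p = 0.109), and neither was called. Acvr2a, the other type II receptor, had 959 ± 7.70 and 1848 ± 35.2 (log2 fold change 0.95, SE 0.06). It passed the test of significance and missed the fold threshold, which it reached at 1.01 when library totals were used for scaling. The type I receptor Acvr1c had 0 counts in both Undiff libraries and normalized counts of 116 and 77.5 in the Day4 libraries, and was at least 28.8-fold higher in Day4 against a floor of 3 counts per library. Cfc1, a co-receptor of the Cripto family, had 14 and 15 counts in Undiff and 2 and 1 in Day4, a ratio of 12.2 lower in Day4 (95% counting interval 3.77 to 62.4). It was called lower, on few counts. In the annotation Acvr1c overlaps Gm13544, Acvr2a overlaps Orc4 and Cfc1 overlaps Prss40. The methods name only the Direct RNA samples as counted strand-specifically on genes, and do not spell out the setting for the Illumina libraries.

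Of the Smad genes, Smad3 rose, with normalized counts of 758 and 668 in the Undiff libraries, against 6872 and 7011 in the Day4 libraries. Its mean went from 713 ± 63.6 to 6942 ± 98.1 (SD, n = 2), 9.72-fold higher, with a log2 fold change of 3.28 (SE 0.06, edgeR adjusted p = 2.63e-14). Smad2 had 2991 ± 8.29 and 3775 ± 108 (log2 fold change 0.34) and Smad4 had 3251 ± 164 and 5353 ± 62.2 (log2 fold change 0.72), and both stayed below the fold threshold.

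Of the 9 nuclear and intracellular inhibitors, 2 were called lower and 1 was called higher. Skil, which encodes the Smad corepressor SnoN, fell from 14990 ± 96.4 to 5452 ± 6.29 (SD, n = 2; log2 fold change -1.46, SE 0.04), and Tgif1, a corepressor of Smad2, fell from 5265 ± 45.7 to 2193 ± 3.19 (log2 fold change -1.26, SE 0.05). Tgif2, its paralog, rose from 1566 ± 54.3 to 3212 ± 115, at a log2 fold change of 1.04 that lies just past the threshold and went below it in DESeq2 and without Day4 replicate 2 (0.97). It also lost the call in a test against a fold change of 2 (edgeR adjusted p = 0.203). Smad7, the inhibitory Smad that the pathway induces, had 1762 ± 109 and 1133 ± 69.6 (log2 fold change -0.64) and was not called.

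Of the 6 extracellular inhibitors, 2 were called lower and 1 was called higher. Nomo1, whose product was described with that of Ncln as a Nodal antagonist, fell from 10094 ± 59.7 to 3340 ± 8.16 (SD, n = 2; log2 fold change -1.60, SE 0.04). Dand5, which encodes a Cerberus-like antagonist that acts at the node, rose from 58.2 ± 6.14 to 243 ± 3.66 (log2 fold change 2.05, SE 0.15). Fstl3, a follistatin-like activin binder, was called lower on 22, 14, 11 and 4 counts (log2 fold change -1.58, edgeR adjusted p = 0.0153). It lost the call without Undiff replicate 1 (adjusted p = 0.0649), without Day4 replicate 2 (0.183) and in DESeq2 without shrinkage (0.104), among others. Fst, the follistatin gene, had 116 ± 1.12 and 133 ± 3.73 and was not called (log2 fold change 0.19, adjusted p = 0.238).

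Targets of the pathway in mesoderm and endoderm were called in both directions. Eomes, a T-box factor of the primitive streak and endoderm, fell from 170 ± 40.9 to 12.5 ± 1.46 (SD, n = 2; log2 fold change -3.78, SE 0.28). T (brachyury), the mesoderm factor of the streak, had 117 and 70 counts in Undiff and 1 and 3 in Day4, a ratio of 58.8 lower in Day4 (95% counting interval 22.6 to 218). Lhx1 rose from 8.12 ± 4.72 to 355 ± 19.8 (log2 fold change 5.39, SE 0.23), the endoderm factor Foxa2 from 12.9 ± 2.05 to 55.9 ± 15.5 (2.15, SE 0.34), and Sox17, another endoderm factor, from 20.8 and 19.1 to 141 and 162 in replicates 1 and 2 (2.92, SE 0.22). Mixl1 had 26.0 ± 4.56 and 48.0 ± 5.89 (log2 fold change 0.89) and passed the fold threshold without Undiff replicate 1 (1.09), and Gsc had 0, 4, 3 and 2 counts and gets no fold change.

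**Figure D4:**
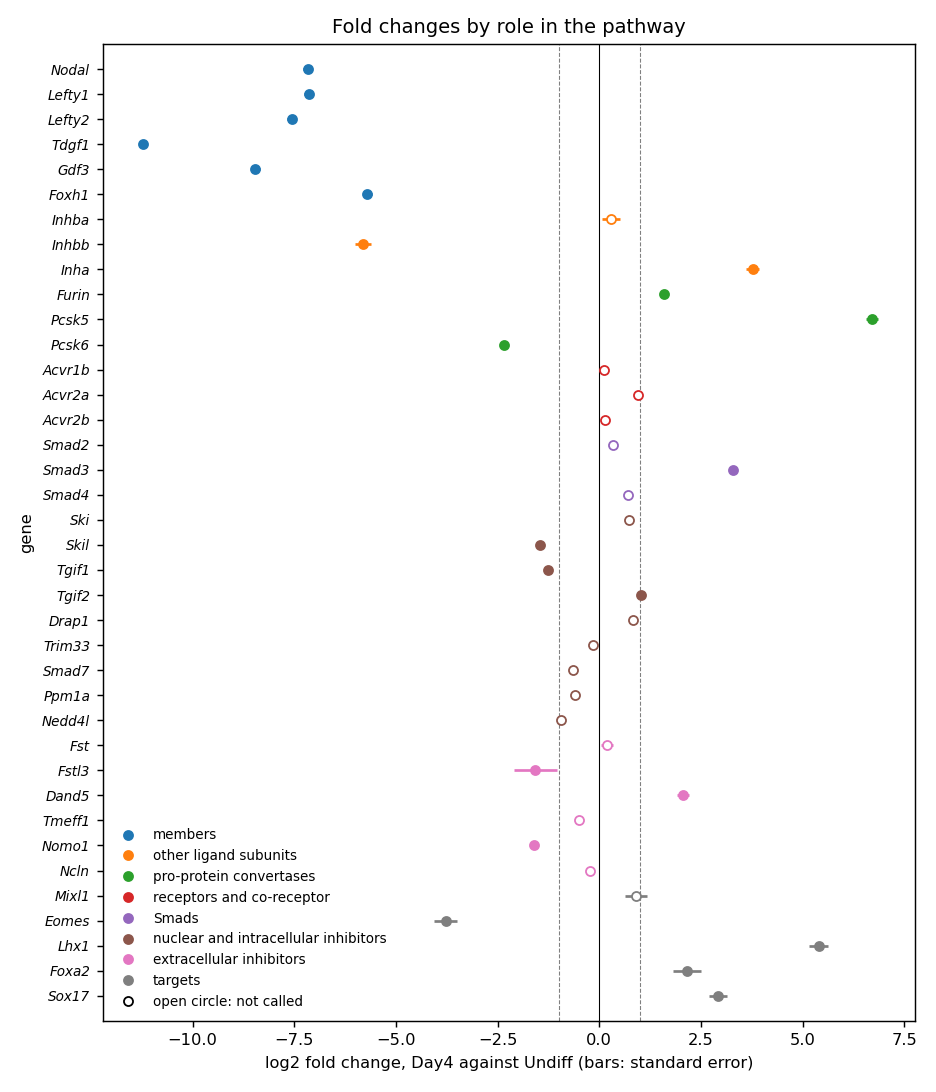
Log2 fold change, Day4 against Undiff, with its standard error, of the 6 called genes and of 32 further pathway genes in order of role, with filled circles for called genes, open circles for genes not called and dashed lines at the fold threshold. The bars can be smaller than the counting error where a state has few counts. The 6 genes lie at -5.70 or below, where of the further genes shown only Inhbb (-5.80) also lies. The open circles of the receptors and of Smad2 and Smad4 lie between 0.11 and 0.95. Gdf1, Gsc, Acvr1c, Cfc1 and T, at or near the floor in a state, are among those left out. Of these, T fell as far (-5.78, on 1 and 3 Day4 counts).

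The markers of the states moved with these genes. All 8 pluripotency markers (Pou5f1, Sox2, Nanog, Zfp42, Esrrb, Klf4, Utf1 and Dppa5a) were called lower, and their summed level went from between 3472 and 3578 CPM in Undiff to between 20.8 and 26.8 CPM in Day4. Their Day4 means were between 0.335% and 11.9% of their Undiff means. That range holds Nodal at 0.682%, Lefty1 at 0.709%, Lefty2 at 0.522% and Foxh1 at 1.94%, while Tdgf1 at 0.0413% and Gdf3 at 0.289% lay below it. The upper end was Klf4 alone, and the next highest marker, Nanog at 1.18%, lay below Foxh1. All 8 RA response markers were called higher, from between 11.1 and 11.2 CPM to between 780 and 786 CPM. These are the directions that the labels of the states imply, and the part of either list in the fall of the Nodal genes was not tested.

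Markers of other cell types moved in both directions. Of 8 visceral endoderm markers, 3 were called lower and 3 (Afp, Ttr and Apoa1) higher. Their sum went from between 79.6 and 94.1 CPM to between 14.3 and 16.5 CPM. Most of the Undiff sum came from Rhox5 (46.4 and 55.7 CPM) and Cubn (27.7 and 32.6 CPM), both called lower. Afp had 0 counts in both Undiff libraries. Of 5 anterior visceral endoderm markers, which share Gsc and Lhx1 with the pathway list and describe the tissue that makes Cer1, 2 were called lower and 2 higher, from between 118 and 154 CPM to between 20.2 and 21.1 CPM. Otx2, which gave most of that sum, had 0 and 1 counts in Day4. Of 7 neural markers, 3 were called lower and 3 higher, between 134 and 135 CPM in Undiff and between 150.4 and 165 CPM in Day4. Of 7 fibroblast markers, 1 was called lower and 6 higher, from between 66.0 and 73.5 CPM to between 1603 and 1762 CPM. The part of these cell types in the levels of the Nodal genes was not tested.

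The genes beside the 7 loci were described in the same way. Within 50 kb of them lay 24 other counted genes, of which 0 overlapped a gene of the group, 13 were called lower and 4 were called higher, against 20.6% and 22.2% of all genes. Their log2 fold changes ran from -6.69 for Lrrc2, 5387 bases from Tdgf1, to 4.16 for Frem1 beside Cer1. All 3 neighbours of Tdgf1 were called lower, the other two being Rtp3 (-2.70, with means of 49.7 and 7.63) and Als2cl (-3.81). Of the neighbours of Gdf3, Apobec1 (-4.40) and the germ cell and ESC gene Dppa3 (-5.11) were called lower too. Of the neighbours of Nodal, Pald1 was called lower (-1.68) and Eif4ebp2 was not (-0.87). Kifc2 lies 29 bases from Foxh1 on the other strand and was called lower (-1.33). Named neighbours were picked for their nearness or for the ends of the range, after their values were seen.

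The genes most like each of the 6 in pattern were found by the distance between log2(normalized count + 1) values, centred on each gene's mean over the 4 libraries, among genes whose mean was within 4-fold. The 3 nearest to Nodal were Pla2g1b (distance 0.139), Cbr3 (0.237) and Gpa33 (0.238). Lefty1 was nearest to the pluripotency factor Esrrb (0.0621), then to Pipox (0.0990) and Zfp936 (0.141), whereas Lefty2 was nearest to Slc7a3 (0.232), Tdrd12 (0.357) and Gpa33 (0.360). Gdf3 was nearest to Platr10 (0.307), Gtsf1l (0.409) and Spp1 (0.421), and Foxh1 to Sfn (0.121), Zfp819 (0.165) and Trpv2 (0.195). Tdgf1 stood more alone, with Dnmt3l, the cofactor of the DNA methyltransferases, at 0.512, and the next, Trh and Zfp42, at 1.86 and 2.99. Owing to its high mean, Tdgf1 had only 1507 candidate genes, against 7426 to 8667 for the others. With 4 libraries in 2 states these distances mostly measure the size of the change and the spread of the replicates.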

How the data were processed

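RNA of R1 cells was sequenced by the authors as 4 Illumina TruSeq libraries, 2 of Undiff and 2 of Day4, grouped here by the sample titles. The authors used cutadapt for trimming and STAR 2.4.2a (the version in the submitters' processing notes) for alignment to mm10, and counted uniquely aligned fragments on genes with HTSeq. The deposited values are counts per gene symbol, whole numbers without normalization. Totals on genes were 32099074 to 47730944 per library, and fragments on no gene (12.1% to 13.2% of counted fragments in Undiff, 7.50% to 7.74% in Day4) or on more than 1 gene (1.84% to 1.91%) were left out. The methods name only the TruSeq RNA Sample Preparation Kit for the Illumina libraries. A further kit with removal of ribosomal RNA is named in the labels, and this difference could not be settled.

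After TMM scaling, the states were compared with edgeR 4.0.16 (glmQLFit with legacy = FALSE, glmQLFTest) in R 4.3.3 over the 19891 genes with a count, with Benjamini-Hochberg adjustment over all of them and the thresholds of the study's methods (adjusted p-value of 0.05, log2 fold change of 1, mean of 5). The SE is the size of the log2 fold change divided by the square root of F. Where a state has few counts it can be smaller than their counting error, and it then understates the error of the fold change. The floor was 3 counts per library. In simulated counts for 19516 genes, edgeR recovered 100 of 100 genes changed by a log2 fold change of 2 and 100 of 100 changed by 3, with 2 false calls. Every simulated gene had the same dispersion, and the changed genes were taken from those not near the count floor. The simulation therefore checks that the test ran as meant, and not its error rate in these data. Alternatives were DESeq2 1.42.0 without shrinkage and with the study's settings, other scalings, a low-count filter, thinning to 32099074 counts, a test against a 2-fold change, no minimum mean, a replicate block and each library left out. An earlier edgeR method was added after the data were seen.

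The members, gene lists and tests were chosen with earlier results of these data known. All members are named, with pathway genes that were called, uncalled ones given as values, and the 3 genes nearest in pattern. Positions, lengths and overlaps are from GENCODE vM21, whereas by the methods the gene counts used an mm10 annotation from iGenomes UCSC. How far these annotations differ at the named genes was not checked. Promoters are from RefSeq, whose table held 3 of the 7 genes. Lefty1, Lefty2, Gdf3 and Foxh1 are the others. Some named genes and a sequence are not reported here.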

Additional observations from a re-analysis of the deposited data

How the results depend on the processing

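All 6 called genes kept their direction and call under each of 12 alternatives (72 of 72 values), with a largest adjusted p of 2.15e-05. Leaving out each library in turn, the log2 fold change ran from -7.34 to -7.07 for Nodal, -8.72 to -8.20 for Gdf3, -11.40 to -11.11 for Tdgf1, -5.80 to -5.60 for Foxh1, -7.21 to -7.08 for Lefty1 and -7.69 to -7.46 for Lefty2. Where a state was left with 1 library, it was assumed to vary like the other state. The count of all genes called, 8521, became 8114 in DESeq2 with the study's settings, 8306 to 8410 without a library, 7483 in the test against a fold change of 2 (the lowest value) and 9256 with no minimum mean (the highest). Of the 38 further pathway genes, 8 or 9 were called lower and 10 to 12 higher without a library, the changes being in Tgif2, Fstl3 and Mixl1. The difference in the Lefty1 share ran from 4.28 to 9.73 percentage points without a library and was 5.68 after thinning. Scaling by DESeq2's size factors or library totals gave a median log2 fold change over all genes of -0.06 or 0.04, against -0.03.

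Both states use replicate numbers 1 and 2, but the differences between replicates 1 and 2 in Undiff and in Day4 correlated at only -0.0166 over 14643 genes, so the numbers were taken as names and not as a pairing. With the replicate block, 8515 genes were called, 8484 of the 8521 kept their call, and 6 of the 7 genes were again lower.

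With coding length in place of merged exon length, the Undiff order of Gdf3 and Lefty1 (ranks 3 and 4) and that of Nodal and Foxh1 (ranks 5 and 6) was exchanged. Depth limits Cer1, Cfc1, Gsc and the Day4 ratios, which rest on 0 to 49 counts per gene and library.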
